A study of Sus scrofa with 15 samples.

Results

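The Toll-like receptors (TLRs) of the pig liver were followed as a gene family. Its members were the rows of the deposited count table whose Ensembl identifier carries the symbol TLR1 to TLR10, whatever their values, and these were 10 of 31908 rows. Of the 10 members, 9 passed the filter on low counts and were tested among 12774 genes, and TLR10 did not pass.

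Male piglets in the growing stage (Duroc x Large White x Landrace) received lipopolysaccharide (LPS) at 80 μg/kg into the peritoneum, or the same dose of sterile saline (CON), and the liver was taken 4 h later. The libraries compared here were 3 CON and 3 LPS input libraries, that is, fragmented polyadenylated RNA of whole liver kept aside before the m6A immunoprecipitation. The 6 libraries held between 4348478 and 19967417 counted reads. How the livers of each group were assigned to the 3 libraries is not stated, so p-values measure the spread between these libraries only. In RNA of whole tissue, fewer cells of a type and less RNA per cell cannot be told apart.

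TLRs are transmembrane receptors that recognize conserved microbial molecules and signal through a shared intracellular TIR domain. TLR1, TLR2, TLR4, TLR5, TLR6 and TLR10 act mainly at the cell surface, where they meet lipoproteins, LPS and flagellin. TLR3, TLR7, TLR8 and TLR9 act in endosomes, where they meet nucleic acids. In the liver they are known from Kupffer cells, endothelial cells, other leukocytes and, for some members, hepatocytes, and LPS itself is the ligand of TLR4 with its partner MD-2.

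LPS replicate 2 was closer to the CON libraries than the other LPS libraries were. Across the tested genes its log2 CPM (read counts scaled to a common library size) correlated better with the CON libraries (0.923 to 0.945) than with LPS replicate 1 (0.907) or LPS replicate 3 (0.853) (Pearson's r over genes, which are not independent replicates). LPS replicates 1 and 3 correlated at 0.903 with each other, so LPS replicate 1 was no closer to replicate 3 than to replicate 2. With the CON libraries, LPS replicate 1 correlated at 0.8531 to 0.8989 and LPS replicate 3 at 0.8374 to 0.8745. LPS replicate 2 lay within the CON range for 5 of the 9 tested TLR genes (TLR1, TLR2, TLR3, TLR6 and TLR8), a share of 55.6%, against 50.2% of all tested genes. Scaled to total counts instead, TLR2 in this library was above the CON range. For each tested member the log2 fold change is therefore given with and without LPS replicate 2. All libraries were rich in hepatocyte transcripts, with 9 of 9 listed markers detected and a summed level of 46500 to 62300 CPM in CON and 29500 to 55400 CPM in LPS libraries.

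With all 6 libraries, none of the 9 tested TLR genes was called. A call required an adjusted p below 0.05 (edgeR quasi-likelihood test, Benjamini-Hochberg over all tested genes) and a fold change above 1.5, and it was met by 0.0548% of tested genes as higher and by 0.0% as lower in the LPS group. At an unadjusted p below 0.05, 1 member (TLR2) was higher and 0 were lower, against 6.18% and 6.33% of tested genes. DESeq2 called none of them with all 6 libraries, against 1.91% of genes called higher and 0.995% lower, and limma-voom none, against 0.0157% and 0.0%. Without LPS replicate 2, edgeR called TLR2 higher and TLR8 lower, in a fit that called 3.76% of genes higher and 3.45% lower.

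**Figure D1:**
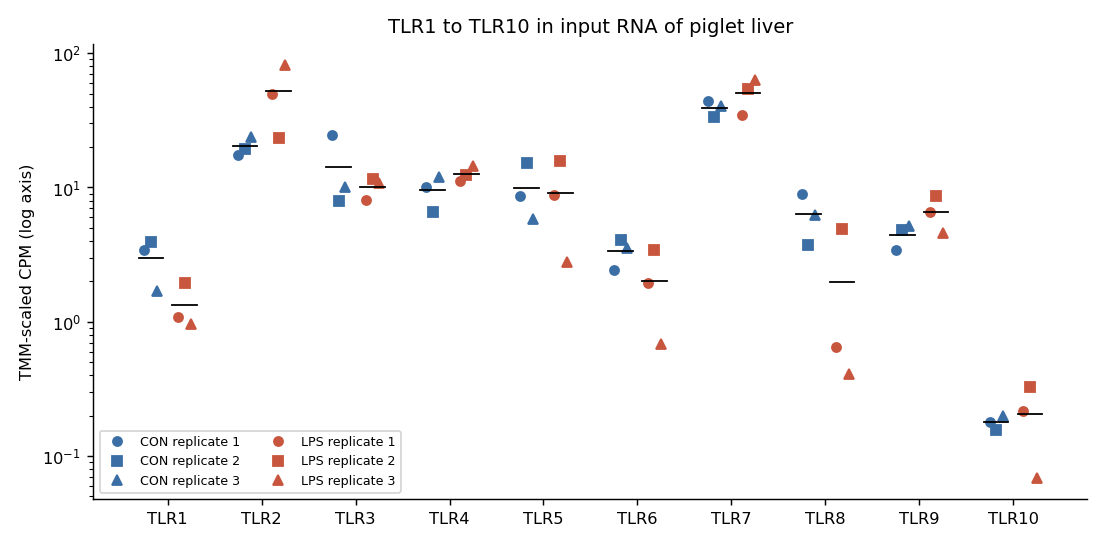
TMM-scaled CPM of TLR1 to TLR10 on a log axis, with 1 point per library (blue, CON, red, LPS, the shape gives the replicate) and a bar at each group mean. TLR2 reached 82.2 CPM in LPS replicate 3 against at most 23.7 in the CON libraries, and TLR8 was under 1 CPM in LPS replicates 1 and 3 only.

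The levels of the members were first set in order per length, as TMM-scaled CPM per kilobase of the row's exons. In the CON group TLR7 had the highest mean, 3.27 ± 0.455 (SD, n = 3), followed by TLR3 (2.16 ± 1.37), TLR2 (2.06 ± 0.327), TLR5 (1.91 ± 0.942), TLR4 (1.20 ± 0.345), TLR1 (1.07 ± 0.418), TLR8 (0.838 ± 0.345), TLR6 (0.685 ± 0.173), TLR9 (0.622 ± 0.130) and TLR10 (0.0621 ± 0.0073). Every neighbouring pair in this order overlapped in its CON range except TLR9 and TLR10, so most ranks do not separate the genes beyond their spread. In the LPS group TLR2 came first with 5.30 ± 3.0 CPM per kilobase, before TLR7 with 4.21 ± 1.22, and TLR8 came next to last with 0.265 ± 0.336, and here only TLR3 and TLR9 were neighbours without overlap. TLR2 made up 11.4%, 15% and 18.8% of the summed family level per length in the CON libraries, and 36.1%, 14.4% and 44.4% in LPS replicates 1, 2 and 3. TLR8 made up 3.76% to 7.65% of it in the CON libraries and 0.612%, 3.92% and 0.288% in the LPS replicates. The whole sum was 12.9 to 15.6 CPM per kilobase in the CON libraries and 14.2 to 18.9 in the LPS libraries.

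The row of a gene in the count table is not always that gene alone. The TLR7 row (ENSSSCG00000012117) spans 97554 bases in 13 exon blocks, of which the largest, 4581 bases, is 38.1% of its length. In the RefSeq table of Sscrofa11.1, TLR7 itself lies inside the span of the TLR8 row, the gene LOC100627016 lies inside that of the TLR2 row, and the share of reads that fall on them cannot be told from the table. The gene PRPS2, which encodes a phosphoribosyl pyrophosphate synthetase, lies inside the span of the TLR7 row, and the PRPS2 identifier has 0 rows of its own in the count table. How many of the TLR7 row's reads fall on that neighbour cannot be told from the table, and its first place in the CON order holds for the row only. The TLR2 row shares 261 of its 9800 exon bases with a row that had 0 counts in all libraries. The TLR7 and TLR8 rows share 346 exon bases on the same strand, of 12032 and 7525 bases, and how reads on them were counted is not stated. The TLR3 row reaches across the RefSeq gene FAM149A and the row of CYP4V2, with 0 exon bases shared with another row, and its largest block is 29.3% of its length. In TLR1, TLR2, TLR4, TLR5, TLR6, TLR8, TLR9 and TLR10 a single block held 85.3% to 98.9% of the row's length.

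TLR2, the receptor for bacterial lipoproteins that pairs with TLR1 or TLR6, had the largest positive log2 fold change of the tested members (ENSSSCG00000009002, chromosome 8 from 75411991 to 75446850, minus strand; the sources used here do not name the pig build). Its counts were 195, 125 and 240 over CON libraries 1 to 3, and 230, 143 and 1204 over LPS libraries 1 to 3. After scaling these were 17.4, 19.5 and 23.7 CPM against 50.1, 23.4 and 82.2 CPM. LPS replicates 1 and 3 were above every CON library, whereas LPS replicate 2 lay just under CON replicate 3, so the groups overlapped on this scale. Scaled to total counts, LPS replicate 2 had 2.65 CPM per kilobase, above the CON range of 1.93 to 2.37. On that scale the groups did not overlap. The log2 fold change of the LPS over the CON group was 1.36 (SE, the standard error, 0.44, adjusted p = 0.260 by edgeR). Without LPS replicate 2 it was 1.72 (SE 0.35, adjusted p = 0.0167 by edgeR), and TLR2 rose past the threshold. It was called as well when low-count genes were not filtered out (1.33, adjusted p = 0.0244 by edgeR), in a fit that called 2.28% of genes higher. Without LPS replicate 3 the log2 fold change was 0.87 (adjusted p = 0.386 by edgeR). In each fit with 1 library left out it stayed above 0.

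TLR1 and TLR6, the partners of TLR2 in its heterodimers, had log2 fold changes below 0 that did not pass the test. Both lie on chromosome 8, TLR1 (ENSSSCG00000026583) from 30147621 to 30155466 and TLR6 (ENSSSCG00000026592) from 30159754 to 30180650. TLR1 had 3.40, 3.91 and 1.68 CPM in CON libraries 1 to 3, against 1.09, 1.96 and 0.956 CPM in LPS libraries 1 to 3. For TLR6 the CON values were 2.41, 4.06 and 3.56 CPM and the LPS values 1.96, 3.44 and 0.683 CPM. In both genes LPS replicates 1 and 3 were below every CON library and LPS replicate 2 was inside the CON range. For LPS replicate 1 the exact 95% Poisson intervals, which cover counting error only, overlapped those of the lowest CON library. They were 0.354 to 2.54 against 0.979 to 2.69 CPM for TLR1, and 0.897 to 3.73 against 1.59 to 3.51 CPM for TLR6. In LPS replicate 3 the interval of TLR1 (0.523 to 1.60 CPM) overlapped too, and that of TLR6 (0.327 to 1.26 CPM) did not. The log2 fold change was -1.17 for TLR1 (SE 0.55, adjusted p = 0.428 by edgeR) and -0.77 for TLR6 (SE 0.61, adjusted p = 0.643 by edgeR). Without LPS replicate 2 the values were -1.54 (adjusted p = 0.163 by edgeR) and -1.47 (adjusted p = 0.195 by edgeR), and neither was called. TLR1 rested on 80 CON counts and 31 LPS counts, and TLR6 on 89 and 40. TLR1 and TLR6 are close paralogs, and reads that fit both are uncertain because their treatment in the counting is not stated.

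Set against its partners within each library, where library scaling plays no part, TLR2 had more counts per kilobase than TLR1 by a ratio of 1.46, 1.42 and 4.02 in the CON replicates. In LPS replicates 1, 2 and 3 this ratio was 13.1, 3.39 and 24.5. TLR2 to TLR6 was 3.60, 2.39 and 3.32 in CON libraries 1 to 3, against 12.7, 3.39 and 60.0 in LPS libraries 1 to 3. For both partners the ratio was highest in LPS replicates 1 and 3, and LPS replicate 2 was inside the CON range. These 2 ratios were chosen after their values were seen and were not tested. The ratio of TLR2 to TLR4, the only one tested, was 1.40, 2.41 and 1.61 in CON libraries 1 to 3, against 3.66, 1.53 and 4.6 in LPS libraries 1 to 3. Its log2 value was 0.75 higher in the LPS group, with p = 0.3 in a two-sided exact permutation test that can give no p below 0.1 with 3 libraries per group.

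**Figure D2:**
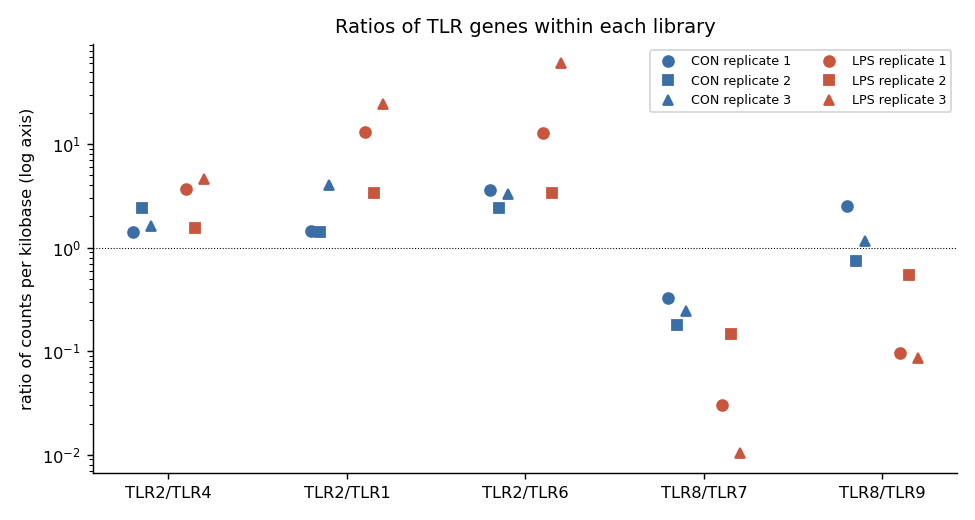
Ratio of counts per kilobase between 2 TLR genes of the same library, on a log axis (blue, CON, red, LPS, shape by replicate, dotted line at a ratio of 1). TLR2 over TLR1 and TLR2 over TLR6 are highest in LPS replicates 1 and 3. TLR8 over TLR7 and TLR8 over TLR9 are lower in all 3 LPS libraries than in every CON library, by little in LPS replicate 2.

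TLR4, the receptor for LPS itself (ENSSSCG00000005503, chromosome 1 from 258044610 to 258059004, plus strand), overlapped between the groups. It had 10.1, 6.56 and 12.0 CPM in CON libraries 1 to 3, against 11.1, 12.4 and 14.5 CPM in LPS libraries 1 to 3. LPS replicates 2 and 3 were above every CON library and LPS replicate 1 was between CON replicates 1 and 3. The place of LPS replicate 3 depended on its TMM factor of 0.735. Scaled to total counts, it had 1.34 CPM per kilobase, inside the CON range of 0.892 to 1.47. The log2 fold change was 0.41 (SE 0.35, adjusted p = 0.673 by edgeR) and 0.43 without LPS replicate 2 (adjusted p = 0.562), and across all alternatives it lay between 0.21 and 0.63. Of the tested members TLR4 also had the smallest spread among the LPS libraries, with a coefficient of variation of 13.3% against 56.7% for TLR2 and 127% for TLR8.

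TLR5, the flagellin receptor (ENSSSCG00000010885, chromosome 10 from 19387666 to 19410024, minus strand), had no steady direction. Its CON values were 8.58, 15.3 and 5.83 CPM and its LPS values 8.72, 15.7 and 2.80 CPM, so the LPS libraries held both the highest and the lowest value. The log2 fold change was -0.14 (SE 0.60, adjusted p = 0.950 by edgeR). It was -0.84 without LPS replicate 2 (adjusted p = 0.416 by edgeR), 0.34 without LPS replicate 3 and 0.31 without CON replicate 2. TLR10, which is known mainly from B cells, was at the limit of detection (ENSSSCG00000027877, chromosome 8 from 30124895 to 30134854, minus strand). It had 2, 1 and 2 counts in CON libraries 1 to 3, against 1, 2 and 1 in LPS libraries 1 to 3. At 1 or 2 reads per library a difference between the groups was not detectable at this depth.

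Among the endosomal receptors, TLR8, which recognizes single-stranded RNA, had the largest negative log2 fold change (ENSSSCG00000012118, chromosome X from 9549552 to 9616759, plus strand). Its counts were 100, 24 and 63 over CON libraries 1 to 3, and 3, 30 and 6 over LPS libraries 1 to 3. After scaling, the CON libraries held 8.94, 3.75 and 6.23 CPM, and the LPS libraries 0.654, 4.91 and 0.410 CPM. LPS replicates 1 and 3 were far below every CON library, with exact 95% Poisson intervals of 0.135 to 1.91 CPM and 0.15 to 0.892 CPM that cover counting error only. The lowest CON library had an interval of 2.40 to 5.58 CPM. LPS replicate 2 was inside the CON range. The log2 fold change with all 6 libraries was -1.72 (SE 0.82, adjusted p = 0.435 by edgeR). Without LPS replicate 2 it was -3.66 (SE 0.66, adjusted p = 0.00924 by edgeR), and TLR8 fell past the threshold. It was also called with no filter (-1.75, adjusted p = 0.0452 by edgeR), where 1.48% of genes were called lower. When DESeq2 was run without LPS replicate 2, which was decided after the data were seen, it called TLR8 lower (-3.64, adjusted p = 0.000145 by DESeq2) and TLR2 higher (1.75, adjusted p = 0.000618 by DESeq2). That fit called 5.03% of genes lower and 5.33% higher. TLR8 and TLR1 passed the filter through their 3 CON libraries, since only 1 LPS library of each was above the filter level of 1.23 CPM. TLR6 also passed through its 3 CON libraries, with 2 LPS libraries above that level.

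**Figure D3:**
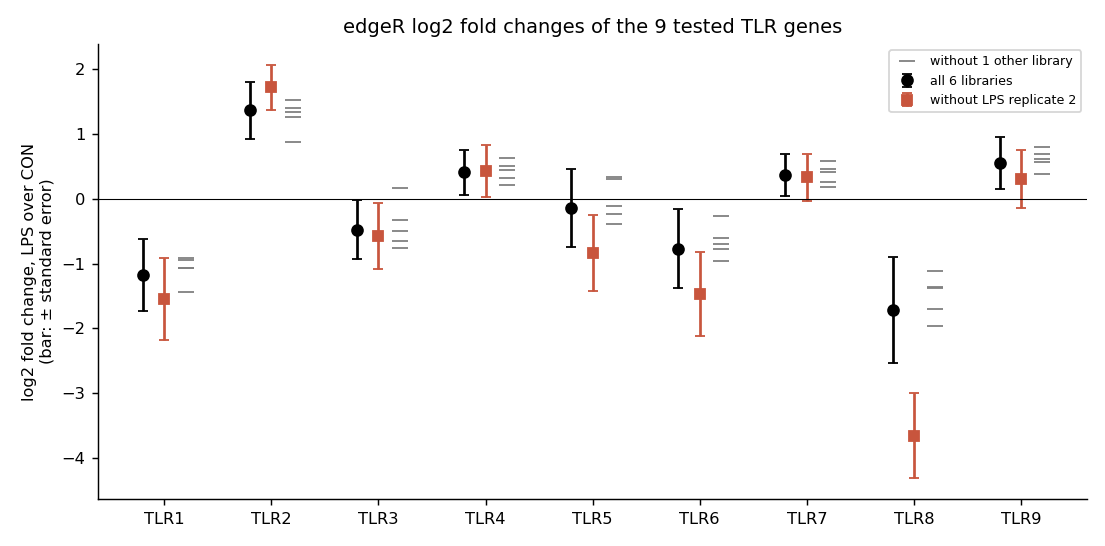
edgeR log2 fold change of the LPS over the CON group for the 9 tested TLR genes, with all 6 libraries (black), without LPS replicate 2 (red) and without each other library (grey dashes). Bars are ± 1 standard error. TLR2 stays above 0 and TLR1, TLR6 and TLR8 stay below 0 in every fit, and TLR8 moves from -1.72 to -3.66 when LPS replicate 2 is left out.

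TLR7 and TLR9, the other endosomal receptors for RNA and DNA, had log2 fold changes above 0 that did not pass the test. The TLR7 row (chromosome X from 9502748 to 9600301, plus strand) had 44.2, 33.4 and 40.3 CPM in CON libraries 1 to 3, against 34.7, 53.7 and 63.6 CPM in LPS libraries 1 to 3. Its log2 fold change was 0.37 (SE 0.32, adjusted p = 0.677 by edgeR), with LPS replicates 2 and 3 above the CON range, and 0.33 without LPS replicate 2 (adjusted p = 0.626). Scaled to total counts, LPS replicate 3 had 3.88 CPM per kilobase of the TLR7 row, inside the CON range of 3.0 to 3.99. TLR9 (ENSSSCG00000011436, chromosome 13 from 34349609 to 34357673, minus strand) had 3.40, 4.84 and 5.14 CPM against 6.54, 8.67 and 4.57 CPM. Its log2 fold change was 0.56 (SE 0.40, adjusted p = 0.612 by edgeR), and LPS replicate 3 was inside the CON range. It was 0.30 without LPS replicate 2, its highest library (adjusted p = 0.730 by edgeR). TLR8 had 0.323, 0.179 and 0.247 times the counts per kilobase of the TLR7 row in CON libraries 1 to 3, against 0.0302, 0.146 and 0.0103 times in LPS libraries 1 to 3. Relative to TLR9 the TLR8 ratio was 2.51, 0.738 and 1.15 in CON libraries 1 to 3, against 0.0953, 0.539 and 0.0854 in LPS libraries 1 to 3. In both ratios all 3 LPS libraries were below all 3 CON libraries, but for LPS replicate 2 the gap was small for its counts. That library had 30 TLR8 counts to 328 of the TLR7 row and 53 of TLR9. CON replicate 2, the nearest, had 24 to 214 and 31. The TLR7 row may also hold reads of PRPS2. Both ratios were chosen after their values were seen and were not tested.

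TLR3, the receptor for double-stranded RNA (ENSSSCG00000015801, chromosome 15 from 46966040 to 47058734, plus strand), differed more within the CON group than between the groups. It had 24.4, 7.97 and 10.1 CPM in CON libraries 1 to 3, against 8.07, 11.6 and 10.8 CPM in LPS libraries 1 to 3. CON replicate 1 was above all other libraries, and all 3 LPS values were within the CON range. Its log2 fold change was -0.48 (SE 0.45, adjusted p = 0.703 by edgeR), and it was -0.58 without LPS replicate 2 (adjusted p = 0.528 by edgeR). Without CON replicate 1 it was 0.17 (adjusted p = 0.925 by edgeR).

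Seen per library, LPS replicates 1 and 3 lay below all CON libraries in 3 of the 9 tested members (TLR1, TLR6 and TLR8), a share of 33.3%, and above them in 1 (TLR2), a share of 11.1%. Among all tested genes these shares were 22.7% and 18.9%. TLR1, TLR6 and TLR8 passed the filter on low counts through their CON libraries, the group in which they are higher. The share of 33.3% is therefore a description only. No tested member had all 3 LPS libraries on one side of the CON libraries by TMM-scaled CPM. Of all tested genes, 6.52% had them above and 9.80% below. Scaled to total counts, TLR2 had all 3 LPS libraries above all 3 CON libraries. The share of all tested genes on that scale was not computed.

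Marker lists of cell types that can express TLRs were set beside these values. All 11 tested Kupffer cell or macrophage markers had a log2 fold change below 0, as did 49.5% of all tested genes, with a median of -0.48. Of the 11, 0 were called lower, against 0.0% of tested genes. At an unadjusted p below 0.05 by edgeR, 3 were lower, against 6.33% of tested genes. The median without LPS replicate 2 was -0.67, and 1 of 11 (MRC1) was called lower, against 3.45% of tested genes. Their summed level was 2010 to 3260 CPM in the CON libraries and 1380 to 2320 CPM in the LPS libraries, and none of the list's rows was at 0. The list's median relative to the CON mean was -1.02, -0.12 and -0.46 on the log2 scale in LPS replicates 1, 2 and 3, where TLR8 was at -2.81, -0.27 and -3.28. CLEC4F, a lectin of Kupffer cells, had 16.0, 18.4 and 13.2 CPM in CON libraries 1 to 3, against 0.218, 15.1 and 5.94 CPM in LPS libraries 1 to 3. MARCO, a scavenger receptor of macrophages, differed from it, with 178, 22.1 and 81.5 CPM in LPS libraries 1 to 3 and a CON range of 69.7 to 222 CPM. VSIG4, TIMD4 and MRC1 differed from CLEC4F in LPS replicate 2, with all 3 LPS libraries below all CON libraries, as in 9.80% of tested genes. In LPS replicate 2 they had 20.3, 16.2 and 29.6 CPM, against lowest CON values of 25.4, 36.2 and 39.1 CPM. Of the 6 tested endothelial markers 1 was above 0 and 5 below. Their median was -0.46, or -0.84 without LPS replicate 2. Their levels gave a summed level of 233 to 554 CPM in the CON and 205 to 347 CPM in the LPS libraries. The marker above 0 was LYVE1, a hyaluronan receptor of sinusoidal and lymphatic endothelium, with 10.1, 10.8 and 16.3 CPM in CON libraries 1 to 3, against 20.1, 19.5 and 43.2 CPM in LPS libraries 1 to 3 (log2 fold change 1.16, SE 0.41, adjusted p = 0.293 by edgeR). The part of these cells in the TLR8, TLR1 and TLR6 values was not tested.

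Of the 6 tested neutrophil markers, 5 had a log2 fold change above 0, with a median of 2.37, and 2.71 without LPS replicate 2. S100A8 was called higher (5.34, adjusted p = 0.0371 by edgeR), where 0.0548% of tested genes were, but its CON libraries held 4, 2 and 4 counts, all below the filter level, so it was tested only through the LPS group in which it is high. S100A12 in CON replicate 2 (0.781 CPM) and MMP9 in CON replicate 1 (0.983 CPM) were below that level too. Both passed the filter only with LPS libraries in which they are high. The list's medians given here include these genes and are a description only. The list's summed level was 22.7 to 33.2 CPM in the CON libraries and 87.4 to 318 CPM in the LPS libraries. Granule genes of the list differed among themselves. MMP8, a granule collagenase that was not tested, was at 0 counts in all CON libraries and at 3.92, 0.818 and 18.5 CPM in the LPS replicates. MPO (myeloperoxidase), also untested, had 0.781 to 1.16 CPM in the CON and 0.273 to 1.09 CPM in the LPS libraries, and ELANE (neutrophil elastase) had a log2 fold change of -0.66 (SE 0.63, adjusted p = 0.706 by edgeR). The list's median was 2.47, 1.45 and 2.86 above the CON mean in LPS replicates 1, 2 and 3. TLR2 was 1.31, 0.22 and 2.02 above it there. The list was thus above every CON library in LPS replicate 2 as well. In that library TLR2 was within the CON range by TMM-scaled CPM, but above it when scaled to total counts. The part of these cells in the TLR2 values was not tested. Median log2 fold changes of the other lists were -0.48 for B or plasma cells, -0.24 for dendritic cells, -0.20 for T or NK cells, -0.41 for hepatocytes and 0.06 for cholangiocytes or stellate cells. The monocyte list, with 3 tested genes and LYZ at 0 counts, had a median of 0.56. These medians without LPS replicate 2 were -0.88, -0.39, -0.40, -0.33, -0.35 and 0.33 in the same order.

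**Figure D4:**
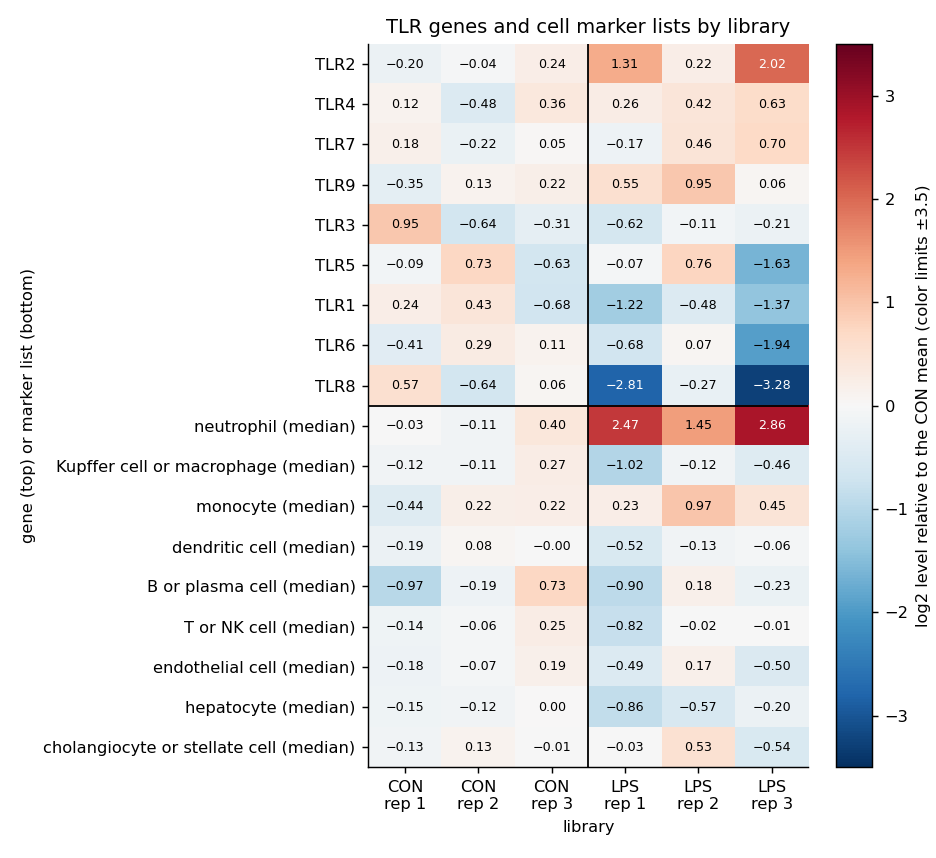
Log2 level relative to the CON mean in each library, for the 9 tested TLR genes and for the median of each cell marker list (red, above the CON mean, blue, below it). LPS replicates 1 and 3 show TLR2 at 1.31 and 2.02 and TLR8 at -2.81 and -3.28, and LPS replicate 2 shows both within 0.27 of the CON mean.

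The genes that bring ligands to TLRs, move TLRs to their place and carry their signal were read from lists outside the family. Of 64 listed genes 60 had a row and 56 were tested, with 36 log2 fold changes above 0 and 20 below, and a median of 0.27 beside 0.01 over all tested genes. The list median was 0.03 without LPS replicate 3 and 0.425 without LPS replicate 2. Scaled to total counts it was 0.14, beside -0.12 over all tested genes. With all 6 libraries edgeR called 0 higher and 0 lower, and 6 and 2 of the 56 were past an unadjusted p of 0.05 in these directions, against 6.18% and 6.33% of all tested genes. DESeq2 called 1 gene higher (TNIP3) and 1 lower (CD180), in a fit that called 1.91% and 0.995% of genes. Without LPS replicate 2, 57 were tested and edgeR called 5 higher (IRF7, SOCS1, TNIP1, TNIP2 and TNIP3) and 0 lower, in the fit that called 3.76% of all tested genes higher and 3.45% lower. In the fit with all 6 libraries TNIP3 passed the filter on low counts only through the LPS group, in which it is high.

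Among co-receptors, the members divided. CD14, which hands LPS to TLR4, had 518, 818 and 821 CPM in CON libraries 1 to 3, against 1350, 805 and 2330 CPM in LPS libraries 1 to 3, a log2 fold change of 1.06 (SE 0.43, adjusted p = 0.359 by edgeR). As with TLR2, LPS replicates 1 and 3 were above every CON library on this scale and LPS replicate 2 was not. Scaled to total counts, LPS replicate 2 (4920 of 5502438 counted reads) was above CON replicate 2 (5237 of 5927348), the highest CON library on that scale. LBP, the plasma protein that carries LPS to CD14, had a log2 fold change of 0.38 (SE 0.42, adjusted p = 0.754 by edgeR). LY96, which encodes MD-2, was low throughout, at 2.47 to 2.95 CPM in the CON libraries and 0.982 to 2.40 CPM in the LPS libraries. Its log2 fold change was -0.59 (SE 0.49, adjusted p = 0.661 by edgeR). Every LPS library was below every CON library, as in 9.80% of tested genes, but the gap was small for such counts. LPS replicate 1 had 11 counts (2.40 CPM) and CON replicate 3 had 25 (2.47 CPM). Scaled to total counts this order was reversed, with 11 of 4348478 counted reads against 25 of 10351491. CD180, a TLR4 homolog without a TIR domain that restrains LPS signaling in some leukocytes, had 11, 3.44 and 7.81 CPM in CON libraries 1 to 3, against 2.62, 1.47 and 1.57 CPM in LPS libraries 1 to 3. LY86 encodes MD-1, the partner of CD180, and had 17.9, 13.9 and 23.6 CPM against 3.27, 7.85 and 8.60 CPM. In both genes all 3 LPS libraries were below all 3 CON libraries, which 9.80% of tested genes showed. Their log2 fold changes were -2.01 (SE 0.52, adjusted p = 0.202 by edgeR) and -1.47 (SE 0.42, adjusted p = 0.221 by edgeR). DESeq2 called CD180 lower with all 6 libraries. When LPS replicate 2 was left out, edgeR gave log2 fold changes of 1.36 for CD14, 0.63 for LBP, -0.31 for LY96, -1.89 for CD180 and -1.58 for LY86, none of them called.

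Of 9 tested genes for folding, trafficking and processing of TLRs, 6 were above 0 and 3 below, none past an unadjusted p of 0.05 in edgeR. HSP90B1 (gp96), the chaperone that most TLRs need to fold, had 1410, 707 and 986 CPM in CON libraries 1 to 3, against 1820, 1620 and 1480 CPM in LPS libraries 1 to 3. All 3 LPS libraries exceeded all 3 CON libraries, as in 6.52% of tested genes, and the log2 fold change was 0.66 (SE 0.35, adjusted p = 0.474 by edgeR). Scaled to total counts, LPS replicate 3 (21691 of 19967417 counted reads) was below CON replicate 1 (15815 of 10311658). UNC93B1, which escorts nucleic acid receptors to endosomes, had a log2 fold change of 0.35 (SE 0.33, adjusted p = 0.701 by edgeR). Both values stayed uncalled, at 0.67 and 0.52, without LPS replicate 2.

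The 4 tested adaptors stayed within 0.18 and 0.28 on the log2 scale, with MYD88, the adaptor of nearly all TLRs, at 0.28 (SE 0.32, adjusted p = 0.758 by edgeR). Of 17 tested kinases and ubiquitin ligases, 11 were above 0 and 6 below. IRAK1, a kinase recruited through MYD88, had 36.0, 50.9 and 62.4 CPM in CON libraries 1 to 3, against 142, 73.5 and 78.9 CPM in LPS libraries 1 to 3. All LPS libraries were above all CON libraries, as in 6.52% of tested genes, with a log2 fold change of 0.98 (SE 0.37, adjusted p = 0.330 by edgeR). Scaled to total counts, LPS replicate 3 (1156 of 19967417 counted reads) was below CON replicate 3 (631 of 10351491). MYD88 was at 0.51 and IRAK1 at 1.15 without LPS replicate 2, and neither was called. The 8 tested transcription factors had 5 values above 0 and 3 below. IRF7, a factor of interferon induction by endosomal TLRs, was called higher without LPS replicate 2 (1.53, adjusted p = 0.0442 by edgeR) and had a log2 fold change of 1.02 with all 6 libraries (adjusted p = 0.574 by edgeR). IRF7 was at 348, 40.9 and 339 CPM in LPS replicates 1, 2 and 3, so LPS replicate 2 was below the CON range of 78.4 to 183 CPM.

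Genes that hold TLR signaling in check gave 8 values above 0 and 5 below among 13 tested, and 4 of the 13 were higher and 0 lower at an unadjusted p below 0.05, against 6.18% and 6.33% of all tested genes. TNIP3, a partner of the deubiquitinase A20, had 0.626, 1.72 and 0.989 CPM in CON libraries 1 to 3, against 3.49, 2.29 and 12.8 CPM in LPS libraries 1 to 3, a log2 fold change of 2.55 (SE 0.72, adjusted p = 0.220 by edgeR). Its CON counts were 7, 11 and 10, and CON replicates 1 and 3 were below the filter level of 1.23 CPM. TNIP3, which is among the 4 counted above, was thus tested only through the LPS group in which it is high. TNIP1, a relative of TNIP3, had 92.5, 122 and 124 CPM against 286, 136 and 440 CPM (log2 fold change 1.35, SE 0.43, adjusted p = 0.257 by edgeR). In TNIP3 and TNIP1 every LPS library exceeded every CON library, as in 6.52% of tested genes. TNIP2 (1.22, adjusted p = 0.384 by edgeR) and SOCS1, a suppressor of cytokine signaling (1.83, adjusted p = 0.364 by edgeR), had LPS replicate 2 within or below the CON range. Inhibitors that act directly at the receptor or at IRAK were nearer 0, with IRAK3 at -0.04, SIGIRR at -0.39 and TOLLIP at -0.16 on the log2 scale (edgeR adjusted p of 0.981, 0.736 and 0.896).

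**Figure D5:**
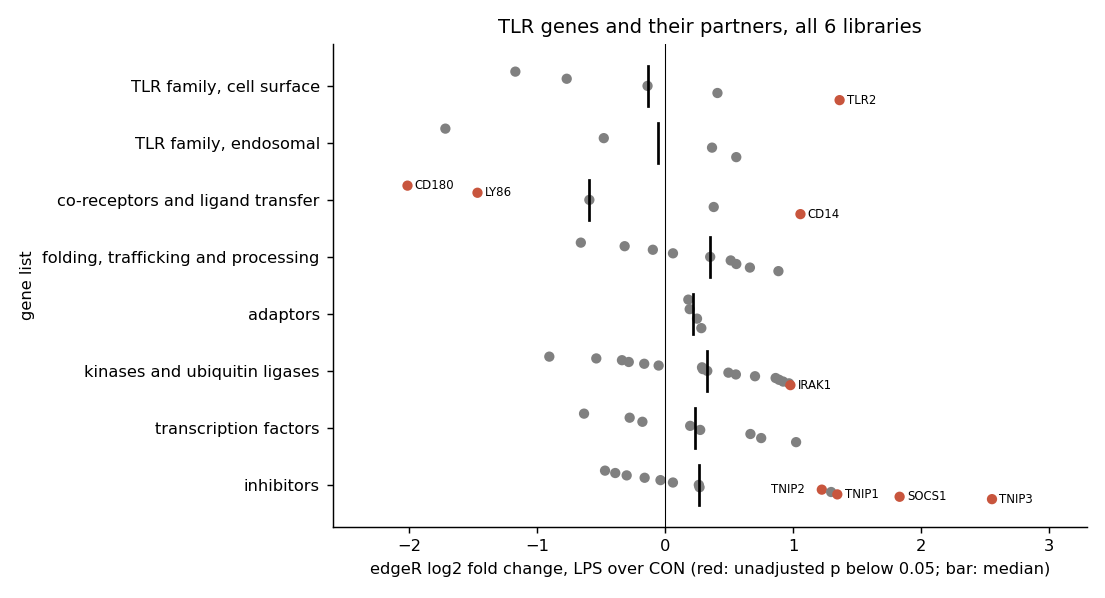
edgeR log2 fold changes of the tested genes in each list with all 6 libraries, with 1 point per gene (red, unadjusted p below 0.05, grey, others) and a bar at each list's median. TLR2, CD14, IRAK1, TNIP1, TNIP2, TNIP3 and SOCS1 are the red points above 0, and CD180 and LY86 those below it.

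The genes outside the family whose log2 CPM was most like that of each member over the 6 libraries were taken from 10756 tested genes with a symbol. They are picks of the highest Pearson's r over 6 libraries that share their depth and treatment, so they are a description and carry no p. For TLR2 these were IMPDH2, SPSB1 and CTNNA1, with r from 0.997 to 0.998. For TLR8 they were CIMIP4, TCTN1 and KDR (r = 0.994 for each), of which KDR, a receptor for vascular endothelial growth factor, is also in the endothelial list used here. KDR had 46.3, 33.7 and 37.8 CPM in CON libraries 1 to 3, against 14.8, 34.2 and 14.5 CPM in LPS libraries 1 to 3. It too was low in LPS replicates 1 and 3 only, a likeness by which it was picked. Its log2 fold change was -0.89 (adjusted p = 0.391 by edgeR). Without LPS replicate 2 it was -1.42 (adjusted p = 0.0339 by edgeR), in the fit that called 3.45% of genes lower. Of the other endothelial markers, CDH5 was also below its CON range in LPS replicates 1 and 3 only. PECAM1, STAB1, CLEC4G and LYVE1 were not. The TLR6 row was most like ABLIM3, TOM1L2 and GPBAR1, the TLR1 row like AMN1, FNDC1 and COP1, and the TLR5 row like ZFYVE1, FLRT2 and SEC11C. For TLR4 the likeness was lower, at 0.976 to 0.983, with MALSU1, RBMX2 and LEPROTL1. The genes nearest to TLR3 were TBCE, REXO2 and TRIP11, those nearest to TLR7 were AHI1, SAR1A and RNASEK, and those nearest to TLR9 included TTC19 and COL5A3.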

How the data were processed

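Values per gene were taken from 1 table of raw counts that the authors deposited without normalization, with 31908 Ensembl pig genes, their exon positions and merged exon length. Among the submitters' processing notes are cutadapt 1.9.3 and HISAT2, along with the builds galGal6 and hg38, and no pig build. No source used here names the counting program, its strand setting or its treatment of shared reads. In the labels CON replicates 1 and 2 have 2 sequencing entries each, for 1 count column each. Unmapped sample columns numbered 0. A symbol was found for 15029 identifiers. IP libraries were not analysed here.

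Genes were filtered with filterByExpr (minimum count 10), scaled with TMM factors and tested in edgeR 4.0.16 under R 4.3.3 (glmQLFit with robust dispersions, glmQLFTest). An SE was obtained by dividing a log2 fold change by the root of its F statistic. Levels are TMM-scaled CPM, and a prior count of 2 entered log2 CPM. Scripts were tested on simulated data. As alternatives, RLE factors, total counts, no filter, 10 counts in every library, DESeq2 1.42.0, voom in limma 3.58.1, a replicate block, other fold thresholds and the omission of each library were tried, and DESeq2 without LPS replicate 2 was added after the data were seen. Libraries within a group were checked for repeated deposits and differed beyond counting error, the chi-square over genes being at least 46.8 per gene. Members, pathway lists and marker lists were chosen with earlier results of these data known. The genes named are all members, MYD88, LY96, CD14, LBP, IRAK3, SIGIRR, TOLLIP, UNC93B1, HSP90B1, up to 4 genes per list past an unadjusted p of 0.05, the 3 genes most like each member (1 of them is not reported here), and genes of marker lists that moved with a member. IRF7 was named after its values were seen.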

Additional observations from a re-analysis of the deposited data

How the results depend on the processing

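No TLR gene was called under RLE factors, total counts, at least 10 counts in every library (which left TLR1, TLR6 and TLR8 untested), DESeq2, limma-voom, the replicate block, or another fold threshold. The number of members called was 1 higher (TLR2) and 1 lower (TLR8) without the filter on low counts and in DESeq2 without LPS replicate 2 (tried after the data were seen), and it ranged from 0 to 1 in each direction when 1 library was left out, with 1 only for LPS replicate 2. Against 7 genes called higher and 0 lower over the whole table, total counts gave 11 and 1, RLE factors 8 and 1, no filter 536 and 349, 10 counts in every library 0 higher, DESeq2 275 and 143, limma-voom 2 higher, and DESeq2 without LPS replicate 2 780 and 736. With 1 library left out these ranged from 0 to 512 higher and from 0 to 470 lower, the upper ends without LPS replicate 2. Genes of the pathway lists called higher, 0 in the analysis reported above, came to 4 with no filter, 1 in DESeq2 and 7 in DESeq2 without LPS replicate 2, and ranged from 0 to 5 with 1 library left out; those called lower came to 2, 1 and 2 in the same order. The cause of these shifts was not tested.

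Over the fits with 1 library left out, the log2 fold change ranged from -0.76 to 0.17 for TLR3, above 0 without CON replicate 1, and from -0.84 to 0.34 for TLR5, above 0 at 0.31 without CON replicate 2 and 0.34 without LPS replicate 3. The other 7 tested members kept their direction in every alternative that could be fitted. Scaling to total counts moved the median of all tested genes from 0.01 to -0.12. The replicate block called 42 genes higher and 9 lower, 0 of them TLR genes. Same-numbered libraries correlated in their deviations at -0.239, 0.219 and 0.0289, within the range of -0.251 to 0.22 for differently numbered libraries. With 3 libraries per group this cannot show whether same-numbered libraries share an origin. TLR1, TLR6, TLR8 and TLR10 had the fewest counts, and depth limits them most.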
